A study of Gallus gallus with 10 samples.

Results

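The 6 libraries of natural chicken brain tissue in this series, of 10 libraries in all, fell into a pair of sides that cut across the tissues. Side A was optic tectum (TeO) replicates 2 and 3 and cerebral cortex (NCC) replicate 3, and side B was TeO replicate 1 and NCC replicates 1 and 2. The members of each side were chosen by the counts of these same libraries, namely by a set of chicken genes that were on in side A and off in side B. Differences between the sides are therefore described with their values and carry no test. The 4 remaining libraries, from induced optic tectum (iTeO), did not enter the choice of genes made here, and their labelled groups were tested.

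The study grafted human neuroepithelial cells into the diencephalon of early chicken embryos and compared the ectopic tectum that formed with natural tissue. iTeO (ES), with 2 libraries, came from embryos that received cells of a human embryonic stem cell line, and iTeO (iPS), with 2 libraries, from embryos that received cells of human induced pluripotent stem cells. TeO and NCC had 3 libraries each. All 10 are labelled genotype WT, the hosts were Hy-Line W36 embryos, and the labels give neither the age nor the sex of the embryos. The sources do not state whether the TeO and NCC embryos carried grafts, nor whether a library held tissue of a single embryo or of several. The p-values therefore measure the spread between these libraries, which may be technical.

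In birds the female carries a Z and a W chromosome and the male carries a pair of Z chromosomes. Genes found on W alone are transcribed only in females, and dosage compensation of Z is incomplete, so that many Z genes are transcribed at higher levels in males. The tectum is the layered midbrain centre that receives retinal input, and the avian cerebral cortex is the pallium. These facts are background only. Gene names, chromosomes and proteins could not be attached to the chicken gene identifiers, since 0 of 24881 matched the gene table at hand. The sex of the embryos, the chromosome of any gene and the markers of the tissues were thus not checked, and genes are given by identifier.

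Total counts per library were between 7832388 and 11631102, of which a single count corresponded to 0.0869 to 0.120 CPM (counts scaled to library size, with TMM factors over the 10 libraries). A filter on low counts left 13539 chicken genes in the natural tissue and 13491 in iTeO. Libraries of a group differed by more than sampling noise, with a chi-square per degree of freedom between 4.65 and 16.3, and none was a repeat of another.

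The most complete difference lay in 29 genes that had at most 3 counts in every library of side B and at least 1 CPM in every library of side A. They made up 0.214% of the 13539 genes, and 0 genes met the reverse definition. Summed over the 29 genes, the level was 455 CPM in TeO 2, 461 CPM in TeO 3 and 448 CPM in NCC 3, against 0.924 CPM in TeO 1, 0.644 CPM in NCC 1 and 0.375 CPM in NCC 2. No natural library lay between these levels, which the definition of the genes largely fixes. The definition also fixes that all 29 genes were detected in each library of side A. Of the 29 genes, 23 had 0 counts in TeO 1, 24 in NCC 1 and 25 in NCC 2. Single genes averaged 1.49 to 157 CPM on side A, with a median of 7.99 CPM.

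The same 29 genes were read out in iTeO. Their summed level was 415 and 462 CPM in the iTeO (ES) libraries, against 0.239 and 0.215 CPM in the iTeO (iPS) libraries. Each iTeO (ES) library detected all 29 genes, and each iTeO (iPS) library had 27 of them at 0 counts. Of the 29 genes, 28 passed the filter in iTeO, and 27 of these (96.4%) were higher in iTeO (ES) at an adjusted p-value under 0.05 in the quasi-likelihood test of edgeR. Over all 13491 genes, 0.823% were called in either direction and 0.319% as higher in iTeO (ES). Each of the 29 genes had at most 1 count summed over iTeO (iPS), so it could pass the filter only through iTeO (ES). For the genes that passed, the direction was thereby fixed, and the share called describes them without being a test of the split. This division was known when the sides were drawn, and stem cell source and embryo cannot be told apart in these 4 libraries. In a fit of all 10 libraries as 4 groups, whose spread includes the division inside TeO and NCC, 0 of the 29 genes were called (edgeR) and 2 had an unadjusted p-value under 0.05. DESeq2 called 28 of 28 in the 4 iTeO libraries, and edgeR called 18 without either iTeO (iPS) library, the lowest number with a library left out.

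**Figure D1:**
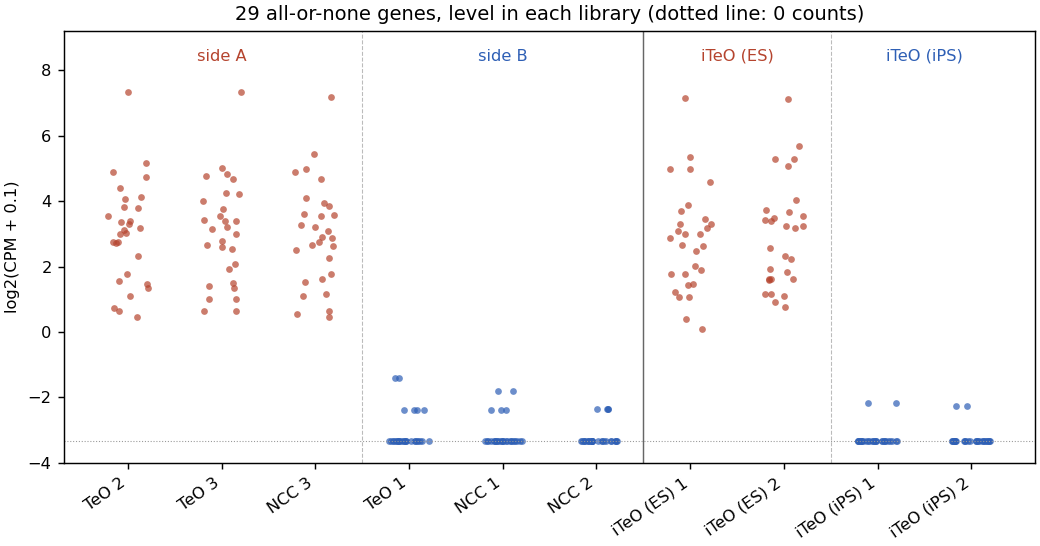
Level of the 29 all-or-none genes in each library, as log2(CPM + 0.1), with a point for each gene and a dotted line at 0 counts. From left to right stand side A (red), side B (blue), iTeO (ES) (red) and iTeO (iPS) (blue). In no library do the genes lie at a level between these groups, which their definition largely fixes for the natural libraries.

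ENSGALG00000039023 was the most abundant of the 29 genes. It had 162, 164 and 147 CPM in TeO 2, TeO 3 and NCC 3, against 0.277, 0.184 and 0.0937 CPM in TeO 1, NCC 1 and NCC 2, which correspond to 3, 2 and 1 counts. Its level on side A was 850-fold that on side B, with a 95% counting interval of 390 to 2317. In iTeO (ES) it had 144 and 141 CPM, and in iTeO (iPS) 0 counts in both libraries, so that it was at least 838-fold higher in iTeO (ES), taking 3 counts over iTeO (iPS) as the floor (adjusted p = 6.13e-06, edgeR). The libraries in which it was on lay between 141 and 164 CPM, whichever the tissue.

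ENSGALG00000040704 had 36.1, 32.4 and 43.5 CPM in TeO 2, TeO 3 and NCC 3, against 1 count in TeO 1 and 0 counts in NCC 1 and NCC 2. In iTeO (ES) it had 41.0 and 51.7 CPM and in iTeO (iPS) 0 counts (adjusted p = 0.000116, edgeR). ENSGALG00000035118 averaged 29.5 ± 2.19 CPM (SD, n = 3) on side A, against 1 count summed over side B. It had 31.3 and 39.3 CPM in iTeO (ES), against 1 and 0 counts in iTeO (iPS). Both genes therefore showed isolated counts in the low libraries and no overlap with the high ones.

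ENSGALG00000040780 averaged 28.4 ± 1.57 CPM and ENSGALG00000035785 averaged 24.0 ± 2.65 CPM on side A (SD, n = 3). Their counts on side B summed to 2 and 1, and both had 0 counts in iTeO (iPS). ENSGALG00000027170 had 16.6, 19.2 and 15.4 CPM in TeO 2, TeO 3 and NCC 3 and 0 counts throughout side B, so that it was at least 184-fold higher on side A, taking 3 counts over side B as the floor. Against the same floor over iTeO (iPS), it was at least 86.1-fold higher in iTeO (ES), where it had 12.9 and 16.4 CPM (adjusted p = 0.00152, edgeR).

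Within side A the levels could be set side by side between tissues. The ratio of NCC 3 to the mean of TeO 2 and TeO 3 was between 0.679 and 1.28 over the 29 genes, with a median of 0.991. With a single NCC library on side A, this ratio has no replicate check. The ratio of iTeO (ES) to side A was between 0.538 and 1.78, with a median of 0.888. The lowest gene by its weakest library on side A was ENSGALG00000037690, with 2.06, 1.46 and 1.26 CPM in TeO 2, TeO 3 and NCC 3 and 0 counts on side B. Genes at this level were also the ones near the limits of the test in iTeO. ENSGALG00000031712 had 14 and 23 counts in iTeO (ES) and 0 in iTeO (iPS), with an adjusted p-value of 0.0690 (edgeR), and ENSGALG00000029783, with 11 and 17 counts in iTeO (ES) and 0 in iTeO (iPS), did not pass the filter.

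Several genes lay just outside the definition. The most abundant was ENSGALG00000040086, with 279, 286 and 315 CPM in TeO 2, TeO 3 and NCC 3, against 4, 3 and 3 counts in TeO 1, NCC 1 and NCC 2. Its ratio of side A to side B was 948 (95% counting interval 515 to 1977), so that a single count kept it out. It had 204 and 217 CPM in iTeO (ES) and 1 count in each iTeO (iPS) library (adjusted p = 7.76e-07, edgeR). Like the 29 genes, it could pass the filter only through iTeO (ES), so its direction was fixed and the p-value does not test the split. ENSGALG00000031327 averaged 143 ± 4.07 CPM (SD, n = 3) on side A and had 5, 2 and 6 counts in TeO 1, NCC 1 and NCC 2. ENSGALG00000033705, with 3.59 to 5.59 CPM on side A, had 4 counts in TeO 1.

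ENSGALG00000026991 was of another kind, on in all libraries but unequal. It had 16.2, 25.8 and 35.9 CPM in TeO 2, TeO 3 and NCC 3, against 2.13, 1.29 and 3.47 CPM in TeO 1, NCC 1 and NCC 2. The ratio of side A to side B was 11.4 (95% counting interval 8.95 to 14.6). In iTeO it had 29.2 and 36.3 CPM in iTeO (ES), against 1.20 and 0.966 CPM in iTeO (iPS) (adjusted p = 0.000116, edgeR). A further 9 genes met the count limit and lay under the CPM limit, with at least 0.5 CPM in every library of side A. Of these, ENSGALG00000044346, ENSGALG00000045131, ENSGALG00000040470 and ENSGALG00000043708 had 0 counts in every library of side B and of iTeO (iPS) and between 0.547 and 2.16 CPM in the libraries of side A. The other 5 had 1 to 3 counts in each library of side B, and in each of them the libraries of iTeO (ES) and iTeO (iPS) overlapped. ENSGALG00000009185 averaged 0.885 CPM in iTeO (ES) and 0.549 CPM in iTeO (iPS), from 15 and 5 counts against 2 and 8. ENSGALG00000040179 averaged 0.180 CPM in iTeO (ES) and 0.107 CPM in iTeO (iPS), from 2 and 2 counts against 0 and 2. In contrast, ENSGALG00000042506 averaged 0.310 CPM in iTeO (ES) and 0.633 CPM in iTeO (iPS), ENSGALG00000035015 averaged 0.217 CPM in iTeO (ES) and 0.340 CPM in iTeO (iPS), and ENSGALG00000030372 had 8.08 and 0.0932 CPM in iTeO (ES), against 1.79 and 2.36 CPM in iTeO (iPS).

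The 29 genes were not scattered evenly over the count table. Counted in rows of the 24881 chicken genes, 16 of them lay between rows 17924 and 18064. Only 19 genes between these rows passed the filter, and the other 3 were ENSGALG00000040086, ENSGALG00000026991 and ENSGALG00000031327. A further 4 lay between rows 19570 and 19631, among 20 tested genes, and the rest lay singly between rows 7763 and 23002. The sources do not say how the rows were ordered, and neighbours in the table are not known to be neighbours in the genome.

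The second difference was smaller in size and covered far more genes. Along the table, the running median of the log2 fold change of side A over side B, taken over 51 tested genes, stayed near 0 except in a stretch where it fell below -0.3. The stretch held 593 tested genes, 251 between rows 7339 and 7724 and 342 between rows 7786 and 8552. Their median log2 fold change was -0.58 (quartiles -0.83 and -0.33), so that the median gene was 1.49-fold higher on side B. Over the 12920 other tested genes the median was 0.01. Since the stretch was found from this contrast, these values describe it and test nothing.

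**Figure D2:**
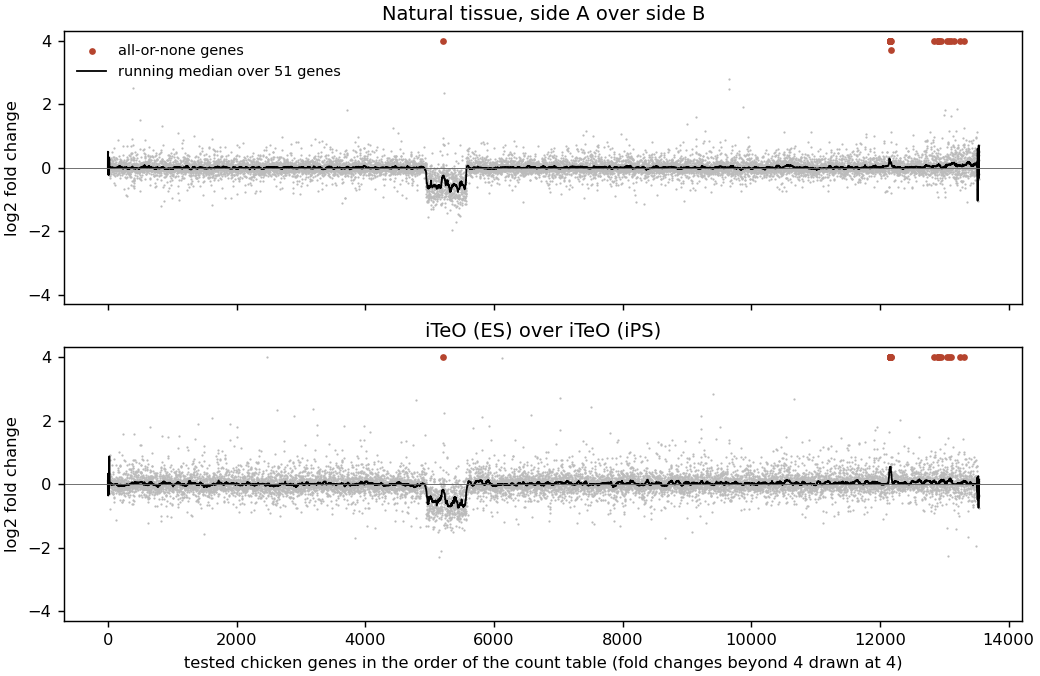
Log2 fold change of each tested chicken gene in table order, for side A over side B in natural tissue (upper panel) and for iTeO (ES) over iTeO (iPS) (lower panel), with the running median over 51 genes in black and the 29 all-or-none genes in red. The running median is flat except for the stretch, where the median gene lies at -0.58 in natural tissue and -0.59 in iTeO, while at both ends of the table single values are drawn and genes not tested in iTeO count as 0 in its running median.

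The shift was present in each tissue taken alone, but both tissues entered the fit that defined the stretch, so this is a description. In TeO it rests on TeO 1 as the only library of side B, and in NCC on NCC 3 as the only library of side A. Within TeO the median of the stretch was -0.59 and 555 of 593 genes lay below 0, and within NCC the median was -0.57 and 561 genes lay below 0. Summed over the 593 genes, the level was 23422, 23838 and 24991 CPM in TeO 2, TeO 3 and NCC 3, against 33200, 34743 and 34588 CPM in TeO 1, NCC 1 and NCC 2. The sums of the sides did not overlap, and TeO and NCC libraries of a side lay close together. The size of the shift depended somewhat on level, with a median log2 fold change of -0.62 for genes at 1 to 10 CPM, -0.58 at 10 to 100 CPM and -0.45 above 100 CPM.

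The libraries of iTeO showed a shift of similar size. The median log2 fold change of iTeO (ES) over iTeO (iPS) was -0.59 over the 579 stretch genes that passed the filter (quartiles -0.84 and -0.30), a level 1.51-fold higher in iTeO (iPS), and 534 genes (92.2%) lay below 0. Over the tested genes outside the stretch and its gap the median was 0.02 and 46.4% lay below 0. The summed level was 24362 and 25915 CPM in iTeO (ES), against 34689 and 35984 CPM in iTeO (iPS). In 455 of the 579 genes (78.6%) both iTeO (ES) libraries lay under both iTeO (iPS) libraries, where 15.8% of all tested genes did so. At an adjusted p-value under 0.05 (edgeR), 66 stretch genes (11.4%) were lower in iTeO (ES) and 0 were higher, where 0.504% of all tested genes were lower. Without adjustment 350 stretch genes (60.4%) had a p-value under 0.05, 349 lower and 1 higher in iTeO (ES), where 6.83% of all tested genes did, and DESeq2 called 122 lower and 0 higher. The number at the adjusted threshold was fragile. It was 0 without iTeO (iPS) replicate 1 or replicate 2 (276 and 238 lower at an unadjusted p-value under 0.05) and 183 without iTeO (ES) replicate 2, while the median log2 fold change stayed between -0.63 and -0.56 whichever iTeO library was left out.

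**Figure D3:**
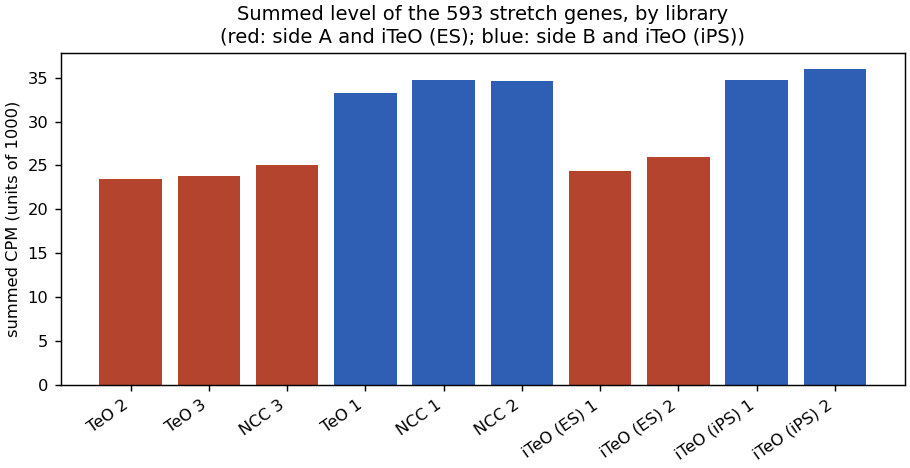
Summed level of the 593 stretch genes in each library, in units of 1000 CPM. Red bars are side A and iTeO (ES), from 23422 to 25915 CPM, and blue bars are side B and iTeO (iPS), from 33200 to 35984 CPM.

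Taking TeO, NCC and iTeO together, 504 of the 579 genes (87.0%) lay below 0 in all 3 comparisons and 7 lay above 0 in all 3. The stretch was found from the TeO and NCC values, so only the iTeO part lay outside that choice. In iTeO alone, 92.2% of the stretch genes lay below 0, against 46.4% of the tested genes outside the stretch and its gap. Genes that shifted more in natural tissue also shifted more in iTeO. Across the 404 stretch genes with a mean of at least 10 CPM, Pearson's r between the log2 fold changes was 0.782 and Spearman's rho 0.809. At a mean of at least 1 CPM, r was 0.633 across 576 stretch genes. At the same limit it was 0.047 across the 12386 other genes. The all-or-none genes were left out, as were the genes kept just outside that definition by their counts on side B. These correlations run across genes that share the same natural and the same iTeO libraries, and genes are not independent replicates.

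**Figure D4:**
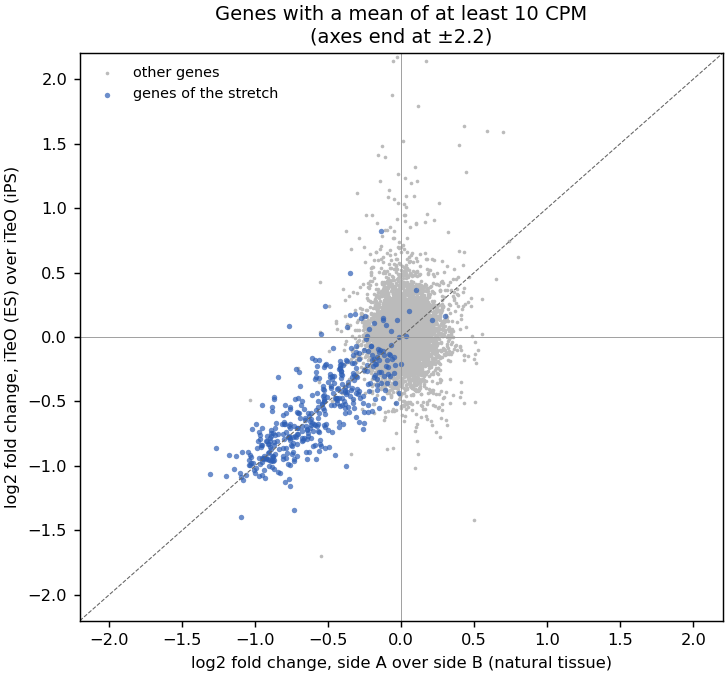
Log2 fold change of iTeO (ES) over iTeO (iPS) against that of side A over side B, for genes with a mean of at least 10 CPM in natural tissue, with the 404 stretch genes in blue and other genes in grey. The stretch genes lie along the dashed line of equal values (r = 0.782), mostly below 0 on both axes, and the other genes spread around 0.

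Among stretch genes of high level, ENSGALG00000037880 had 174, 176 and 183 CPM in TeO 2, TeO 3 and NCC 3, against 359, 340 and 381 CPM in TeO 1, NCC 1 and NCC 2 (log2 fold change -1.01, standard error 0.06). In iTeO it had 237 and 207 CPM in iTeO (ES), against 426 and 446 CPM in iTeO (iPS) (log2 fold change -0.97, standard error 0.12, adjusted p = 0.0187, edgeR). Neither the libraries of the sides nor those of the kinds of iTeO overlapped.

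ENSGALG00000003605 showed the same order. It had 210, 215 and 183 CPM in TeO 2, TeO 3 and NCC 3, against 391, 356 and 333 CPM in TeO 1, NCC 1 and NCC 2. In iTeO (ES) it had 195 and 204 CPM, against 332 and 365 CPM in iTeO (iPS) (log2 fold change -0.80, standard error 0.12, adjusted p = 0.0295, edgeR). ENSGALG00000003248 had 261, 271 and 343 CPM on side A, against 417, 521 and 501 CPM on side B, and 331 and 396 CPM in iTeO (ES), against 613 and 637 CPM in iTeO (iPS) (log2 fold change -0.78, adjusted p = 0.0461, edgeR). All 3 of these genes were called in iTeO, and each was lost when either iTeO (iPS) library was left out.

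The most abundant gene graded higher on side B, ENSGALG00000012594, differed between tissues as well as between sides. In TeO it had 316 and 324 CPM on side A, against 505 CPM on side B, and in NCC 718 CPM on side A, against 1184 and 1072 CPM on side B. Each tissue therefore showed the shift, although the sides overlapped when tissues were pooled. In iTeO it had 389 and 449 CPM in iTeO (ES), against 586 and 706 CPM in iTeO (iPS), a log2 fold change of -0.62 that did not pass the threshold (adjusted p = 0.146, edgeR). ENSGALG00000015451 and ENSGALG00000015058 had log2 fold changes of -0.57 and -0.46 in natural tissue and of -0.50 and -0.53 in iTeO, with adjusted p-values of 0.170 and 0.156 (edgeR).

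The lowest log2 fold changes among stretch genes of at least 10 CPM reached -1.31 in ENSGALG00000003446, -1.27 in ENSGALG00000015620 and -1.20 in ENSGALG00000027932. In iTeO these genes had -1.07, -0.86 and -1.07. At the other end, 5 stretch genes lay within 0.1 of 0 in both comparisons. The most abundant of them, ENSGALG00000014967, had 178, 171 and 117 CPM in TeO 2, TeO 3 and NCC 3, against 166, 110 and 124 CPM in TeO 1, NCC 1 and NCC 2, and 125 and 92.6 CPM in iTeO (ES), against 101 and 115 CPM in iTeO (iPS). ENSGALG00000000244 had a log2 fold change of -0.02 in natural tissue and of -0.000427 in iTeO, although its level in NCC was higher than in TeO (log2 fold change of TeO over NCC -1.31, adjusted p = 7.43e-09, edgeR). Stretch membership therefore did not by itself give a shift.

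The stretch was interrupted by a gap of 26 tested genes between rows 7725 and 7782, with a median log2 fold change of -0.03 in natural tissue and 0.01 in iTeO. Of these genes, 5 (19.2%) were graded higher on side A and 2 (7.69%) higher on side B. Among the tested genes outside the stretch and its gap the shares were 2.57% and 1.15%. The gap and the graded genes were drawn from the same fold changes, so these shares are a description. One all-or-none gene, ENSGALG00000046547, lay in the gap, with 6.67, 6.84 and 6.70 CPM in TeO 2, TeO 3 and NCC 3, against 1, 0 and 0 counts in TeO 1, NCC 1 and NCC 2. It had 6.08 and 3.45 CPM in iTeO (ES) and 0 counts in iTeO (iPS) (adjusted p = 0.0207, edgeR). ENSGALG00000044346, one of the genes under the CPM limit, lay between the same rows and had 22, 6 and 8 counts in TeO 2, TeO 3 and NCC 3.

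**Figure D5:**
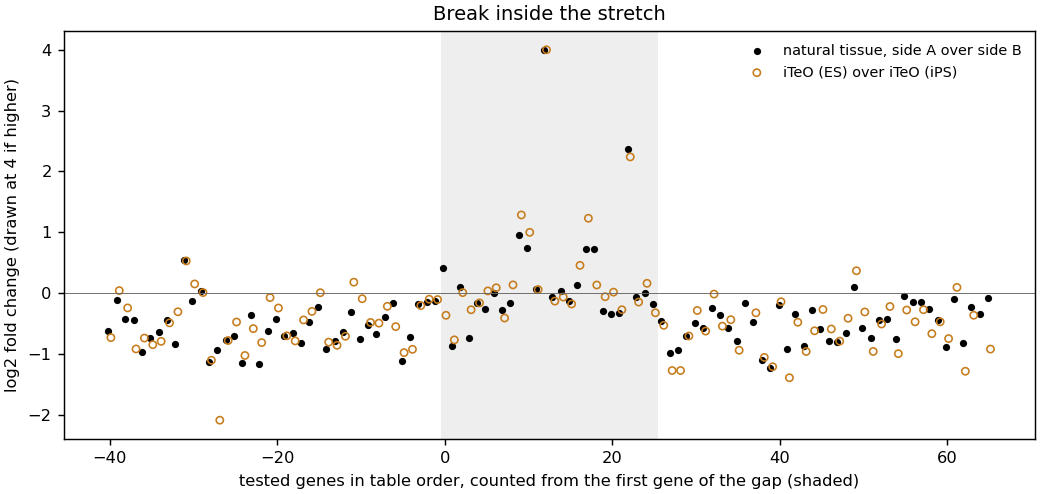
Log2 fold changes around the gap of 26 tested genes (shaded), with 40 genes on each side, for natural tissue (filled) and iTeO (open). Inside the gap the medians are -0.03 and 0.01, several genes lie above 0, and ENSGALG00000046547 is drawn at the upper limit.

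Of the genes of the gap, 5 were graded higher on side A, and 0 of these were called in iTeO (edgeR). Without adjustment 3 of them (60%) had a p-value under 0.05 (edgeR), against 6.83% of all tested genes. ENSGALG00000046481 had 10.1 and 10.9 CPM in TeO 2 and TeO 3, against 2.22 CPM in TeO 1, and 3.20 CPM in NCC 3, against 0.368 and 0.656 CPM in NCC 1 and NCC 2 (log2 fold change 2.37). In iTeO it had 8.86 and 5.03 CPM in iTeO (ES), against 1.20 and 1.72 CPM in iTeO (iPS), a log2 fold change of 2.24 with an adjusted p-value of 0.0559 (edgeR). ENSGALG00000010180 and ENSGALG00000044150 had log2 fold changes of 0.95 and 0.75 in natural tissue and of 1.28 and 0.999 in iTeO (adjusted p = 0.199 and 0.621, edgeR). ENSGALG00000015032 had 0.72 in natural tissue and 0.13 in iTeO, and ENSGALG00000014995 had 0.41 in natural tissue and -0.37 in iTeO. In the opposite direction, ENSGALG00000010147 had 22.3, 24.8 and 20.4 CPM in TeO 2, TeO 3 and NCC 3, against 39.7, 40.9 and 39.7 CPM in TeO 1, NCC 1 and NCC 2. The gap depended on how the stretch was defined, and it closed with a running median over 101 genes.

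Genes that differed between the sides by degree were counted with a fixed definition, an absolute log2 fold change of at least 0.4 with no overlap between sides within TeO and within NCC. Of 13315 genes with a mean of at least 1 CPM, 537 (4.03%) were graded higher on side B and 342 (2.57%) higher on side A. With a library left out they were 597 to 962 and 405 to 917. The directions came close to each other without TeO 1 (962 and 874) and without NCC 3 (939 and 917). Without TeO 1, TeO held side A alone, and without NCC 3, NCC held side B alone. In both settings the lack of overlap was thus required within the other tissue only. The lack of overlap alone was met by 13% of genes in the direction of side B and by 12.3% in that of side A. Of the 537 genes, 386 lay in the stretch, which is 65.1% of the stretch, and 149 lay among the 12920 other genes (1.15%). Of the 342 genes, 5 lay in the stretch and 332 among the other genes (2.57%). The graded genes and the stretch were both drawn from the same fold changes, so these shares describe how the definitions overlap and test nothing.

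Outside the stretch, the graded genes did not keep their direction in iTeO as a group. The 130 tested genes graded higher on side B had a median log2 fold change of 0.02 in iTeO, and 1 was called (0.769%), a share near the 0.823% called over all tested genes. This gene, ENSGALG00000027874, had 10.4 and 10.1 CPM in iTeO (ES), against 2.87 and 2.90 CPM in iTeO (iPS) (adjusted p = 0.0268, edgeR), and was lower on side A in natural tissue. The 301 tested genes graded higher on side A had a median of 0.06 in iTeO, and 6 were called (1.99%), all higher in iTeO (ES), where 0.319% of all tested genes were called in that direction and 0.823% in either. Of these 6 genes, 4 were those just outside the all-or-none definition. Among the 4, ENSGALG00000040086, ENSGALG00000031327 and ENSGALG00000033705 had at most 6 counts in either iTeO (iPS) library. They could pass the filter only through iTeO (ES), which fixed their direction, so the share called is no test of the split.

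The other 2 called genes graded higher on side A were ENSGALG00000043234 and ENSGALG00000014589. ENSGALG00000043234 had 7.26 and 8.94 CPM in TeO 2 and TeO 3, against 1.76 CPM in TeO 1, and 45.8 CPM in NCC 3, against 6.81 and 4.68 CPM in NCC 1 and NCC 2. In iTeO (ES) it had 34.8 and 24.7 CPM, against 11.2 and 11.6 CPM in iTeO (iPS) (log2 fold change 1.38, adjusted p = 0.0301, edgeR). ENSGALG00000014589 had 73.3, 70.3 and 86.7 CPM in TeO 2, TeO 3 and NCC 3, against 39.2, 57.6 and 54.9 CPM in TeO 1, NCC 1 and NCC 2, and 76.5 and 76.3 CPM in iTeO (ES), against 45.1 and 46.2 CPM in iTeO (iPS) (log2 fold change 0.74, adjusted p = 0.0397, edgeR). The call of ENSGALG00000014589 was lost with at least 10 counts in every library (adjusted p = 0.0541), in 4 groups (0.536), with the replicate block (0.102) and without iTeO (iPS) replicate 1 (0.362) or replicate 2 (0.405), all in edgeR. Both separated the libraries in each comparison without being off in any.

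Of the 6 most abundant genes graded higher on side A, the 3 not yet described were not called in iTeO. ENSGALG00000038366 had 1369, 1743 and 1596 CPM in TeO 2, TeO 3 and NCC 3, against 988, 1011 and 1541 CPM in TeO 1, NCC 1 and NCC 2, but 2655 and 3798 CPM in iTeO (ES), against 2992 and 3416 CPM in iTeO (iPS), which overlapped. ENSGALG00000006453 had 473 and 126 CPM in iTeO (ES), against 85.0 and 113 CPM in iTeO (iPS), and did not pass the test (adjusted p = 0.946, edgeR). ENSGALG00000004059 had a log2 fold change of 0.41 in natural tissue and of 0.14 in iTeO. At the limit of the definition, ENSGALG00000036025 was included with a log2 fold change of 0.40 and ENSGALG00000002110 with -0.40, and ENSGALG00000006520 and ENSGALG00000003295, at 0.3999 and -0.3999, were not.

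In all, 111 genes were called between iTeO (ES) and iTeO (iPS), 43 higher and 68 lower in iTeO (ES). The number moved widely with the libraries, to 21 without iTeO (iPS) replicate 1, 23 without iTeO (iPS) replicate 2, 386 without iTeO (ES) replicate 1, 491 without iTeO (ES) replicate 2 and 2 in the fit of 10 libraries in 4 groups. Of the 111 genes, 27 were all-or-none genes, 4 lay just outside that definition, 66 lay in the stretch, 3 were the graded genes ENSGALG00000043234, ENSGALG00000014589 and ENSGALG00000027874, and 11 lay in no class. ENSGALG00000042148, one of the 11, had 88.7 and 98.2 CPM in iTeO (ES), against 40.9 and 46.6 CPM in iTeO (iPS) (adjusted p = 0.0174, edgeR), and its log2 fold change between the natural sides was 0.03. ENSGALG00000009700 had 86.8 and 109 CPM in iTeO (ES), against 28.1 and 42.3 CPM in iTeO (iPS) (adjusted p = 0.0273, edgeR), and in natural tissue its log2 fold change was -0.13. ENSGALG00000016400, with 13.4 and 8.48 CPM in iTeO (ES), against 41.8 and 29.5 CPM in iTeO (iPS) (adjusted p = 0.0326, edgeR), was 0.82 higher on the log2 scale on side A than on side B. ENSGALG00000004704 had a log2 fold change of -1.70 in iTeO (adjusted p = 0.0268, edgeR) and of -0.55 between the natural sides (standard error 0.52), which overlapped in NCC but not in TeO. ENSGALG00000015286 had a log2 fold change of 1.07 in iTeO (adjusted p = 0.0174, edgeR) and of -0.05 between the natural sides. None of these 5 genes separated the natural sides within both tissues in the direction seen in iTeO. All 5 calls were lost without iTeO (iPS) replicate 1 (edgeR). Without iTeO (iPS) replicate 2 the call of ENSGALG00000009700 held, and in the fit of 4 groups that of ENSGALG00000015286. ENSGALG00000015154, a stretch gene under the limit for graded genes, had -0.39 in natural tissue and -1.36 in iTeO (adjusted p = 0.0543, edgeR).

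The sides were unequally spread over the tissues, with 2 of 3 TeO libraries and 1 of 3 NCC libraries on side A, which bears on the comparison of TeO with NCC. Between these tissues, 1785 of 13539 genes (13.2%) passed both thresholds of the study, an absolute log2 fold change above 1 and an adjusted p-value under 0.05 (edgeR), 951 higher in TeO and 834 higher in NCC. With side as a term in the fit the number was again 1785, of which 1697 were called in both fits and 88 in each fit alone. Since the sides were drawn from these libraries, the fit with the term is a description of how the list of genes changes. In the stretch, 71 genes (12%) were called without the term and 77 (13%) with it. At an adjusted p-value under 0.05 and any fold change (edgeR), the stretch held 140 called genes without the term and 259 with it. Over all tested genes these numbers were 6003 and 6001. In these bulk samples, fewer cells of a type and less RNA per cell cannot be told apart.

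Levels of single genes varied with both tissue and side. ENSGALG00000003446 had 16.8 and 18.4 CPM in TeO 2 and TeO 3, against 48.2 CPM in TeO 1, and 11.4 CPM in NCC 3, against 24.0 and 24.4 CPM in NCC 1 and NCC 2. Within each side its level was higher in TeO than in NCC.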

How the data were processed

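The deposited table holds raw counts per gene, and the sources say the authors made them by trimming reads with Trimmomatic, aligning with STAR 2.7.1a to a joined human (GRCh38) and chicken (galGal5) genome and counting uniquely mapped reads with featureCounts. Reads of near-identical gene copies can be lost in this way, and whether counting used strand is not given in the sources used here. The authors tested with DESeq2. Only chicken rows were analysed, without pooling.

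Chicken counts were fitted with edgeR 4.0.16 (R 4.3.3; TMM, filterByExpr, robust quasi-likelihood fit, Benjamini-Hochberg adjustment over all tested genes). Side A and side B were fitted with tissue as a covariate and given without a test. The 4 iTeO libraries were fitted alone and called at an adjusted p-value under 0.05, and TeO against NCC also needed an absolute log2 fold change above 1. CPM used TMM-scaled totals of the 10 libraries, and counts of 3 served as the floor. Counting intervals are 95% exact intervals and, with floors, cover counting error only, since reads were copied by PCR without molecular identifiers.

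The members and lists were chosen with earlier results of these data known. The named genes were the 6 most abundant all-or-none genes and the 6 most abundant graded genes in each direction, those nearest to the limits, all-or-none genes not called in iTeO, and 3 genes in each direction with the smallest p in iTeO and in no class. Genes of the gap, extreme and flat stretch genes, both further graded genes called in iTeO and the gene called in the opposite direction were chosen after their values were seen, as was the stretch itself, a run where the median over 51 tested genes lay below -0.3. Marker lists could not be used, because no identifier matched a gene name. Scripts were tested on simulated data. Alternatives were size factors and tests of DESeq2 1.42.0, other filters and limits, other sets of libraries, a replicate block and libraries left out in turn. Figures used Python 3.11.15 and matplotlib 3.10.9.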

Additional observations from a re-analysis of the deposited data

Results flagged for a closer look

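Counts on human rows lay outside the comparisons above. Their share was 0.371% of all counts in iTeO (ES) replicate 1 (95% Wilson interval 0.367% to 0.375%) and 0.299% in iTeO (iPS) replicate 1 (0.295% to 0.302%), against 0.123% to 0.137% in the 6 TeO and NCC libraries. Both libraries stood above the natural tissue, and both are the first replicate of their group. The second replicates, at 0.129% in iTeO (ES) and 0.124% in iTeO (iPS), lay within the range of the natural tissue. The difference in human share thus divides the replicates within each group and does not divide iTeO (ES) from iTeO (iPS). The part of the human counts in the results was not tested.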

How the results depend on the processing

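Against 111 genes called between iTeO (ES) and iTeO (iPS), of which 27 were all-or-none, 6 graded higher on side A, 66 graded higher on side B and 66 in the stretch, 211 were called with no filter on low counts (138 graded higher on side B and 138 in the stretch). With at least 10 counts in every library, which removes genes that are off, 41 were called, with 0 all-or-none, 1 graded higher on side A, 35 graded higher on side B and 35 in the stretch. The DESeq2 test called 192, with 121 graded higher on side B and 122 in the stretch. A fit of 10 libraries in 4 groups called 2, with 0 in each of these classes, and with TeO and NCC divided by side (6 groups) 268, with 188 graded higher on side B and 196 in the stretch. With an absolute log2 fold change above 1, 59 were called, with 18 graded higher on side B and 18 in the stretch. With 1 iTeO library left out, which assumes that the lone library varies like the others, 21 to 491 genes were called, 18 to 29 all-or-none, 3 to 15 graded higher on side A, 0 to 163 graded higher on side B and 0 to 183 in the stretch, and the stretch median lay between -0.6274 and -0.5642. The low numbers came without either iTeO (iPS) library.

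The numbers were not taken to pair the samples, since the labels give no shared source. The correlations of deviations for same-numbered TeO and NCC libraries were 0.351, -0.263 and 0.358, against a mean of -0.0817 over the other TeO and NCC pairs. Whether same-numbered libraries shared an embryo was not tested. Replicates 1 and 3 share a side, replicates 2 do not, and neither do most of the other pairs. Number and side therefore cannot be told apart in these correlations. With the replicate block, 27 genes were called in iTeO, with 1 graded higher on side B and 1 in the stretch. The correlation for same-numbered iTeO libraries was -0.105, and a block with crossed numbers was added after seeing the data. In iTeO, the log2 fold change of ENSGALG00000038366 changed sign with the block (-0.009674), the crossed block (-0.009719), without iTeO (ES) replicate 2 (-0.2764) and without iTeO (iPS) replicate 1 (-0.08627), and ENSGALG00000036025 without iTeO (ES) replicate 1 (0.08795) and without iTeO (iPS) replicate 1 (0.03046). With each iTeO library left out they ranged from -0.2764 to 0.2447 and from -0.2491 to 0.08795, and both were uncalled throughout.

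For the sides, at least 5 CPM gave 93 genes graded higher on side A and 346 on side B, an absolute log2 fold change of at least 0.6 gave 135 and 327, and 0 counts on the off side left 19 all-or-none genes. Leaving out a natural library gave 29 to 32 all-or-none genes on in side A, 0 to 1 on in side B, 405 to 917 and 597 to 962 graded genes, 586 to 605 stretch genes with medians of -0.5987 to -0.5623 and 18 to 43 genes in the gap. Without TeO replicate 1, 874 and 962 genes were graded, and without NCC replicate 3, 917 and 939, each with the lack of overlap required within a single tissue. The gap held 0 genes with a running median over 101 genes or a limit of -0.2 and 93 with a limit of -0.4, settings added after seeing the data. TeO against NCC gave 1777 to 1913 genes with a library left out. With DESeq2 size factors each of these counts stayed within 1.5 times its value above. The causes of these changes were not tested beyond what the settings remove.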
